A study of Mus musculus with 2 samples.

Results

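The 43 collagen chain genes of the mouse were followed in 2 single-cell RNA libraries of tongue tumours. They were chosen by name, as every gene whose symbol reads Col, a number, a and a number, except Col17a1, and they make up 43 of the 31053 genes counted. The tumours are a model of head and neck squamous cell carcinoma, raised with the carcinogen 4NQO in wild type C57BL/6 mice. The JQ1 library came from such mice given JQ1, an inhibitor of BET bromodomain proteins, over 10 days, and the control library from such mice given control over the same 10 days. Mice of both groups had received 4NQO, so neither library is normal tongue. The labels give 1 library per treatment and no number of mice, so no value has a replicate, no test was made and no p-value is given. Ranges in parentheses are 95% intervals that reflect counting error alone, not the spread between mice.

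Collagens are trimers of alpha chains wound into a triple helix in the endoplasmic reticulum, and most are exported, trimmed and cross-linked outside the cell. Fibrillar chains (types I, II, III and V, with XI, XXIV and XXVII) build the banded fibrils that give stroma its tensile strength, and type IV chains form the sheet-like network of basement membranes around vessels, nerves and epithelia. The remaining chains coat fibrils (the FACIT group), form beaded filaments (type VI), anchor epithelium (type VII), carry heparan or chondroitin sulphate (the multiplexins XV and XVIII), form hexagonal nets (VIII and X) or stay in the plasma membrane. In tumours the main source of fibrillar collagen is held to be fibroblasts, above all contractile ones that carry smooth muscle actin, Acta2.

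All 43 genes were found in the GENCODE M21 annotation of GRCm38, the mm10 build, as protein-coding genes on 14 chromosomes, and 8 neighbouring pairs of members lay less than 200000 bases apart. Col4a1 (chr8:11198423-11312826, minus strand) and Col4a2 (chr8:11312805-11449287, plus strand) start head to head, with annotated ends that overlap by 22 bases. Col4a4 and Col4a3 on chromosome 1 and Col4a6 and Col4a5 on chromosome X also lie head to head, with 71 and 1308 bases between them. Col3a1 (chr1:45311538-45349706) and Col5a2 (chr1:45374321-45503282) lie tail to tail, 24614 bases apart.

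RefSeq promoter windows of GRCm38.p6, which run from 250 bases before to 50 bases after the annotated start, were held for 34 of the 43 genes. The head-to-head type IV pair is shown because its 2 chains are set side by side in every class below, and Col1a2 (chr6:4504814-4541544) as a type I chain. Capitals mark CCAAT (the CCAAT box) and GGGCGG (the GC box) on either strand, and no matches overlapped. TATAAA was searched in the same way and was in none of the 3 windows.
Col4a1: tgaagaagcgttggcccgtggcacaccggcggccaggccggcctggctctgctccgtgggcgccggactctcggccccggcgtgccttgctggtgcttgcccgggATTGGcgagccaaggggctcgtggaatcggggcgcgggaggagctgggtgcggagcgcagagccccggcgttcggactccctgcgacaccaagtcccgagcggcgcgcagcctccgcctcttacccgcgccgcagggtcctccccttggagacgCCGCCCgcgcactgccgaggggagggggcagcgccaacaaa
Col4a2: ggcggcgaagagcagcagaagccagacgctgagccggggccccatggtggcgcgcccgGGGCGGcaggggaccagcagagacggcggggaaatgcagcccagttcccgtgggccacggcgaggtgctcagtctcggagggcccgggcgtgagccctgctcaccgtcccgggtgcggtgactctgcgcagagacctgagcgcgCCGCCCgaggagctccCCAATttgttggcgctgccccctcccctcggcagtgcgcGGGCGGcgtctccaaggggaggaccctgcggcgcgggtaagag
Col1a2: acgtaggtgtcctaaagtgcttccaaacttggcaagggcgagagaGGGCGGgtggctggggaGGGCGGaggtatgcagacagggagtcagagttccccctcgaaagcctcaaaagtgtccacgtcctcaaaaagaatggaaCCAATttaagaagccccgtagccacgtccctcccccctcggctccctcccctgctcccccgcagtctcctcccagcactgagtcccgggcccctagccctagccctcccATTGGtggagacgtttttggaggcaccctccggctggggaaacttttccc
The Col4a1 window is chr8:11312777-11313076 on the minus strand, the Col4a2 window chr8:11312555-11312854 on the plus strand, and they share the 78 bases of chr8:11312777-11312854. The Col1a2 window is chr6:4505368-4505667 on the plus strand. GGGCGG was in the windows of 22 of the 34 members (64.7%) and in 35.7% of all 32851 windows of that length. CCAAT was in 12 of the 34 (35.3%), against 37.4% of all windows, and TATAAA in 4 of the 34 (11.8%), against 13.6%. A match is a description of these letters only.

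Unique molecular identifiers (UMIs) were counted at the 3' end of each RNA, so a count stands for a molecule and is not scaled by gene length. Levels are given as CPM, the UMIs of a gene or group of genes scaled to a fixed total of UMIs of the class. The JQ1 library held 16233 barcodes with 99565417 UMIs and the control library 9754 barcodes with 118382532 UMIs. After filtering, 14044 JQ1 cells with a median of 3879 UMIs and 8150 control cells with a median of 11302.5 UMIs were kept. The libraries stand apart in makeup: JQ1 held 1333 keratinocytes, 1176 salivary gland cells and 173 erythroid cells, against 5232, 101 and 0 in control. Of the 40 barcodes present in both libraries, 28 were kept in both, and of 21 with a class in both only 2 had the same class. Cells were classed by marker genes, none of them a collagen, and the class names below stand for these gates. Gated cells had a UMI for 55.0% to 81.7% of their own markers on average in JQ1 and for 56.1% to 84.9% in control, over fibroblasts, pericytes, vascular smooth muscle, endothelial cells, Schwann cells and keratinocytes. RNA from other cells was present in both libraries: in fibroblasts the salivary mucin gene Muc5b stood at 1179 CPM in JQ1 and 17.0 CPM in control, and the keratin gene Krt14 at 59.7 and 360 CPM. Collagen chains in immune cells, which should make few, summed to 312 CPM in JQ1 and 51.2 CPM in control, and this level is given below wherever a class comes near it.

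Collagen chains made up 0.371% of the UMIs of kept cells in JQ1 and 0.0858% in control, or 339878 and 97442 UMIs. Fibroblasts held 64.7% of these UMIs in JQ1, from 4167 cells, and 45.4% in control, from 725 cells. Keratinocytes held 2.11% in JQ1 and 28.3% in control, from 7178 and 27563 UMIs. Cells without a class held 15.8% in JQ1 and 12.1% in control. The difference in the library totals thus came with a difference in which cells were captured, and the comparisons that follow are within classes.

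A chain counted as measured in a class when the 2 libraries together gave it 20 UMIs or more and the higher of them reached 10 CPM. By this rule 29 of the 43 chains were measured in 1 or more of the 6 classes named above: 9 of 11 fibrillar, 4 of 6 type IV and 16 of 26 other chains. The 14 that were not are Col2a1, Col11a2, Col4a3, Col4a4, Col6a4, Col6a5, Col6a6, Col9a1, Col9a2, Col10a1, Col19a1, Col22a1, Col25a1 and Col26a1, with 5 to 377 UMIs in JQ1 and 0 to 266 in control over all kept cells. Col25a1, a transmembrane collagen, and Col4a4 reached the limit within single fibroblast subtypes.

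Each class had its own set of chains. Col1a1, Col1a2 and Col3a1 stood highest in fibroblasts in both libraries, and Col4a1, Col4a2, Col5a2, Col5a3, Col18a1 and the 3 classical type VI chains Col6a1, Col6a2 and Col6a3 in pericytes. Col15a1, a multiplexin of vessel and muscle basement membranes, and Col13a1, a transmembrane collagen, stood highest in endothelial cells. Vascular smooth muscle was highest for Col4a5 and Col4a6. Schwann cells were highest for Col16a1, Col20a1, Col24a1, Col27a1 and Col28a1, the last known in mouse from the sheath of peripheral nerves. These places were the same in JQ1 and in control, each from 1 library. Some control places rest on few UMIs, such as 2 for Col24a1 and 3 for Col20a1 in Schwann cells. Col4a6 in control vascular smooth muscle rests on 3 UMIs.

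**Figure D1:**
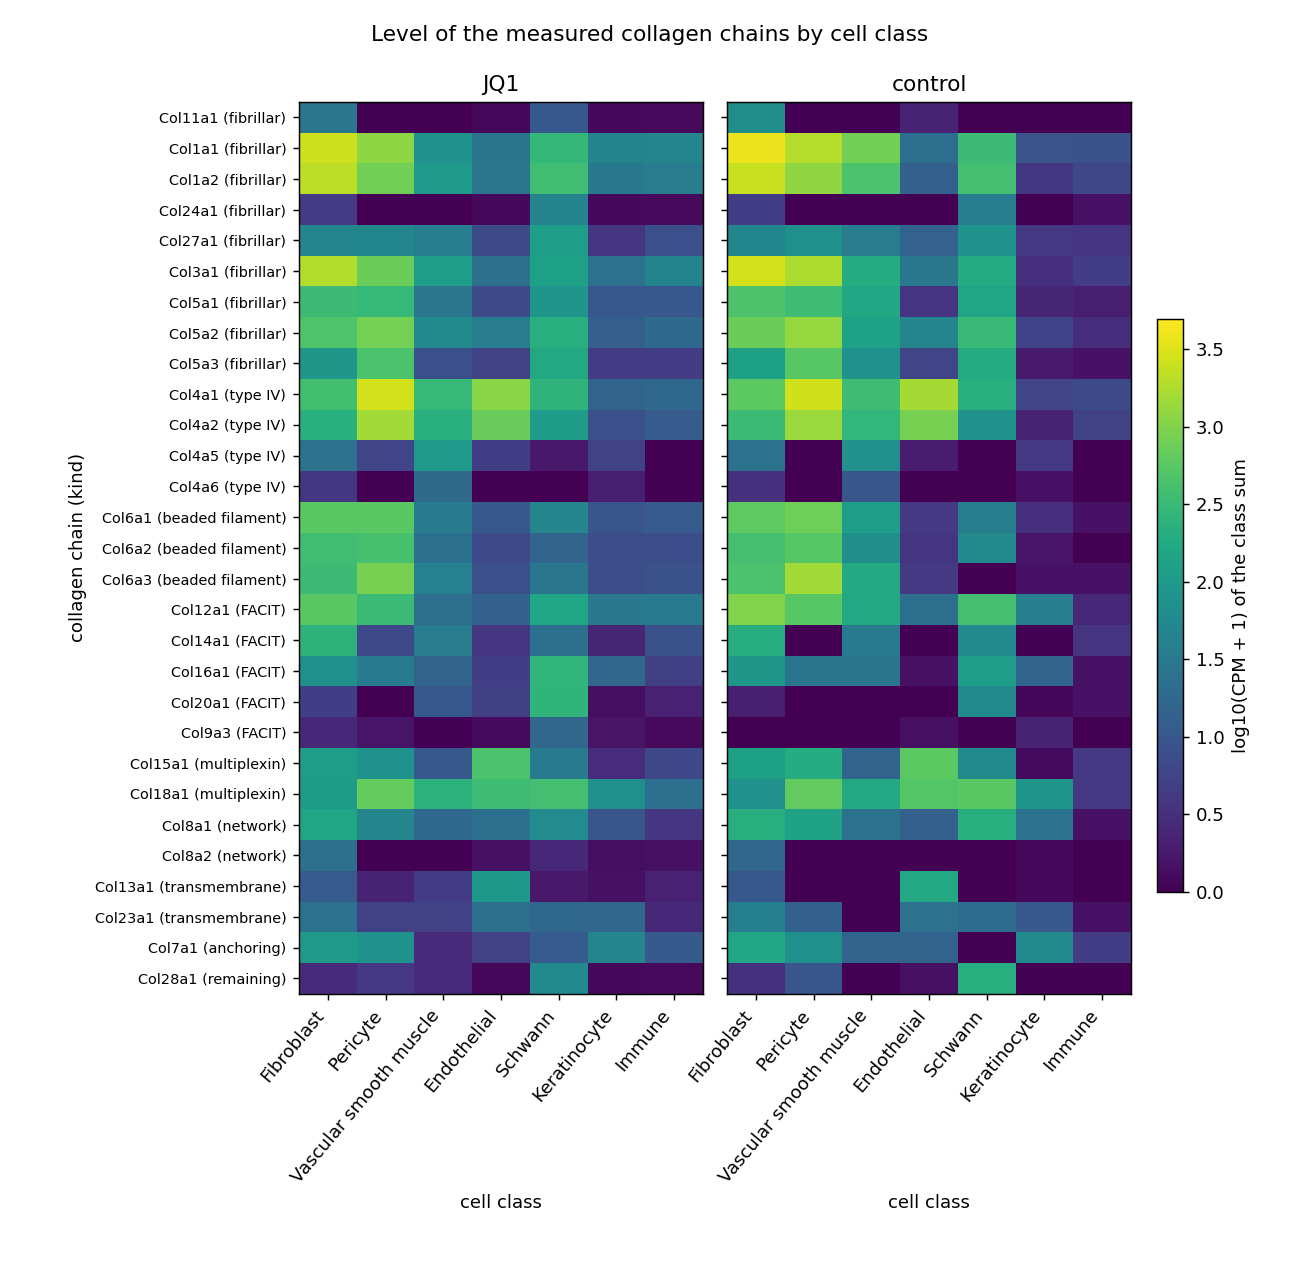
Level of the 29 measured collagen chains (rows, with their kind) in 6 cell classes and in immune cells, as log10(CPM + 1) of the summed UMIs of each class; JQ1 is the left panel and control the right. Col1a1 in fibroblasts is 2579 CPM in JQ1 and 3948 CPM in control, and Col4a1 in pericytes 2836 and 2707 CPM; the immune column gives the same chains in cells that should make few of them.

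The main comparison asks which chains of fibroblasts, the main collagen source, differed under JQ1. Fibrillar chains summed to 7619 CPM (7581 to 7657) in JQ1 fibroblasts and 10665 CPM (10547 to 10783) in control fibroblasts, a JQ1 over control fold of 0.714 (0.706 to 0.723). Type IV chains summed to 639 CPM in JQ1 and 954 CPM in control, a fold of 0.669 (0.643 to 0.698). All other chains summed to 2702 CPM in JQ1 and 3412 CPM in control, a fold of 0.792 (0.775 to 0.809). All 3 groups were thus lower in JQ1 per UMI of the class, and their shares of collagen were alike, with fibrillar chains at 69.5% of collagen UMIs in JQ1 and 71.0% in control.

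**Figure D2:**
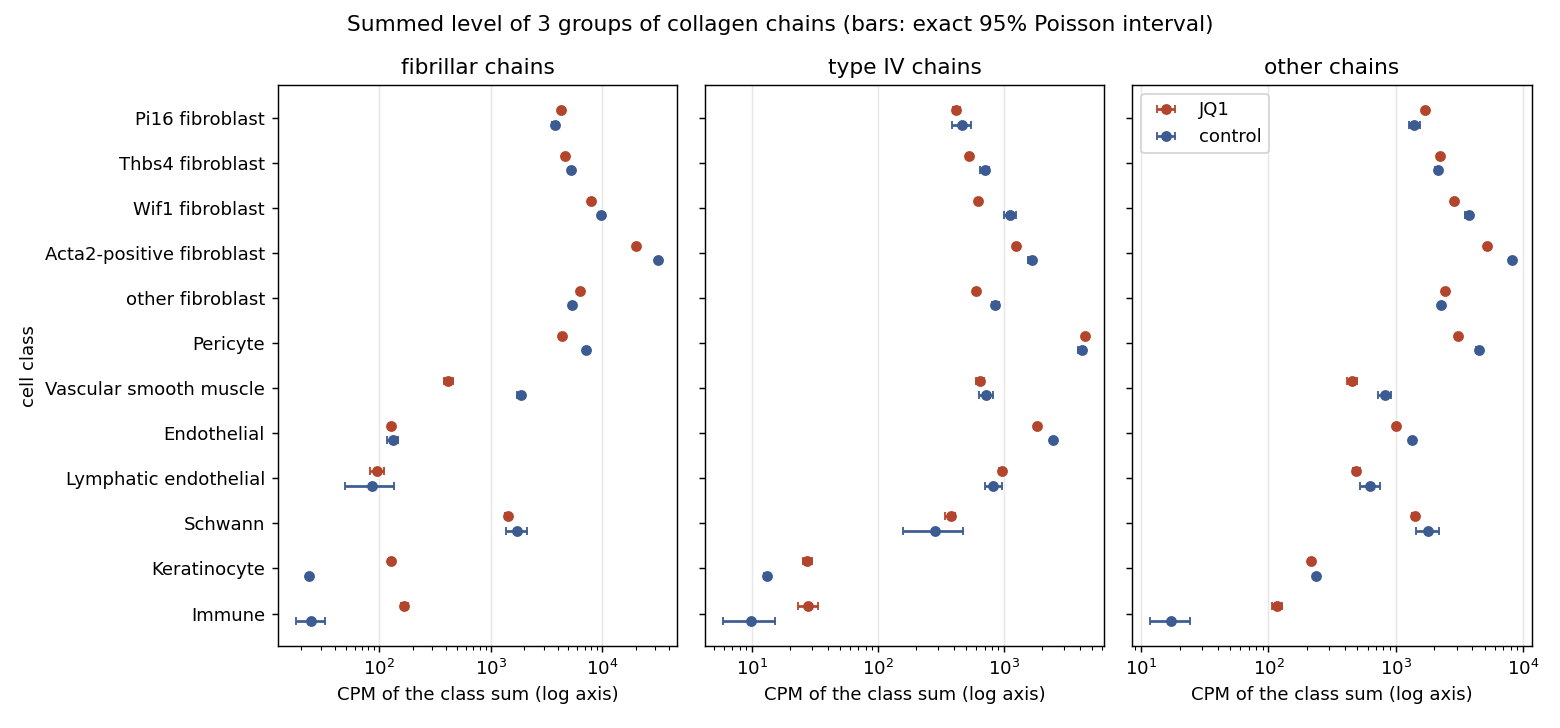
Summed level of fibrillar, type IV and other chains (panels, CPM on a log axis) in 12 cell classes, with JQ1 drawn above control in each row and bars for the exact 95% Poisson interval. In the fibrillar panel the widest gap among fibroblasts is in Acta2-positive cells, at 20344 CPM in JQ1 and 32093 CPM in control. The keratinocyte and immune rows lie near each other for fibrillar chains.

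Of the 24 chains measured in fibroblasts, 0 were 1.5-fold or more higher in JQ1 and 8 were 1.5-fold or more lower. Over all 8935 genes measured in fibroblasts, 5.83% were that much higher and 3.07% that much lower. The median log2 ratio was -0.39 over the 24 chains and 0.06 over all measured genes. With no replicate, these counts describe the 2 libraries, and they moved with the processing: the mean of per-cell CPM gave 1 lower chain, and a gate on cells thinned to 1000 UMIs gave 1 higher and 3 lower. Without the cell of each library with the most fibrillar UMIs 5 of the 8 lower calls were kept (Col4a1, Col7a1, Col11a1, Col12a1 and Col23a1), while Col1a1, Col4a2 and Col5a2 had folds of 0.680, 0.671 and 0.673, inside the limit. The share over all genes is not given for these alternative counts.

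Among fibrillar chains of fibroblasts the 2 chains of type I collagen did not move alike. Col1a1, which gives 2 of the 3 strands of the type I trimer, had 2579 CPM in JQ1 and 3948 CPM in control, a fold of 0.653 (0.640 to 0.667). Col1a2, which gives the remaining strand, had 2158 CPM in JQ1 and 2484 CPM in control, a fold of 0.869 (0.847 to 0.891). Over all fibroblasts there were 1.20 Col1a1 UMIs for each Col1a2 UMI in JQ1 and 1.59 in control, and this gap differed between the subtypes given below. Col3a1, the chain of type III collagen, which shares fibrils with type I, had 1882 CPM in JQ1 and 2776 CPM in control, a fold of 0.678 (0.662 to 0.694), just inside the 1.5-fold limit.

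Type V collagen starts fibrils and sets their width. Its chain Col5a2 had 487 CPM in JQ1 and 749 CPM in control, a fold of 0.650 (0.620 to 0.681), while Col5a1 had 345 and 461 CPM and Col5a3 89.2 and 125 CPM. Col5a2 and its neighbour Col3a1 thus had folds of 0.650 and 0.678. Col11a1, a fibrillar chain of cartilage that is often seen in tumour stroma, had 28.1 CPM in JQ1 and 69.0 CPM in control, a fold of 0.408 (0.347 to 0.481) and the lowest of the 24 chains. The Col11a1 fold differed between the subtypes given below. Col27a1 had 47.1 CPM in JQ1 and 49.6 CPM in control.

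The 2 broadly made type IV chains, which pair in 1 trimer, were lower together in fibroblasts. Col4a1 had 376 CPM in JQ1 and 582 CPM in control, a fold of 0.647 (0.614 to 0.682), and Col4a2 had 223 and 336 CPM, a fold of 0.664 (0.619 to 0.712). Their ratio was nearly the same, with 1.69 Col4a1 UMIs for each Col4a2 UMI in JQ1 (1.63 to 1.75) and 1.73 in control (1.60 to 1.88). Col4a5 had 23.1 CPM in JQ1 and 24.1 CPM in control.

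Other chains of fibroblasts fell into those that were lower and those that were level or higher. Col12a1, a FACIT chain of tendon and stressed stroma, had 569 CPM in JQ1 and 1011 CPM in control, a fold of 0.563 (0.541 to 0.587). Its relative Col14a1, of mature fibrils, had 246 CPM in JQ1 and 203 CPM in control, a fold of 1.21 (1.11 to 1.32). Col7a1, the anchoring fibril chain, had 97.0 CPM in JQ1 and 154 CPM in control, but its log2 ratio of -0.66 became 0.23 with the thinned gate. Col23a1, a transmembrane chain, had 24.0 and 38.4 CPM. Col18a1, the precursor of endostatin, had 106 CPM in JQ1 and 74.4 CPM in control, a fold of 1.42 (1.24 to 1.64), inside the limit. The type VI chains had folds of 0.935 for Col6a1, 0.878 for Col6a2 and 0.780 for Col6a3.

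Sums over a class weigh cells by their depth, and here the sum and the typical cell did not say the same. The median fibroblast had 2729 fibrillar CPM in JQ1 and 2792 fibrillar CPM in control, with interquartile ranges of 1479 to 5151 CPM in JQ1 and 1486 to 5807 CPM in control. The 90th percentile was 10759 CPM in JQ1 and 13159 CPM in control. The fold of 0.714 in the sums therefore came with medians that were close, and with a higher upper tail in control.

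Acta2-positive fibroblasts were taken as fibroblasts with an Acta2 UMI and a UMI for at least 1 further contractile gene. They were 268 of the JQ1 fibroblasts (6.43%) and 52 of the control fibroblasts (7.17%), but held 27.3% of all collagen UMIs of JQ1 fibroblasts and 52.0% of those of control fibroblasts. Fibrillar chains summed to 20344 CPM in JQ1 Acta2-positive fibroblasts and 32093 CPM in control ones, a fold of 0.634 (0.623 to 0.645). Their median cell had 6138 fibrillar CPM in JQ1 and 19379 fibrillar CPM in control, with interquartile ranges of 2539 to 21174 CPM in JQ1 and 7484 to 39411 CPM in control that overlap.

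The other 3899 JQ1 and 673 control fibroblasts are called Acta2-negative here, though some had an Acta2 UMI with no further contractile one. An Acta2 UMI was in 5.44% to 6.60% of the JQ1 and 0% to 3.95% of the control cells, by subtype. In Acta2-negative cells fibrillar chains summed to 6019 CPM in JQ1 and 5751 CPM in control, a fold of 1.05 (1.03 to 1.07). Its log2 value of 0.07 was near the median of 0.06 over all genes measured there. It ran from -0.15 to 0.19 over 13 ways of processing. The median Acta2-negative cell had 2617 fibrillar CPM in JQ1 and 2624 fibrillar CPM in control. Type IV chains stayed lower there, at 562 CPM in JQ1 and 793 CPM in control, a fold of 0.709 (0.675 to 0.745). The remaining chains had 2390 and 2327 CPM, a fold of 1.03 (0.999 to 1.06). Fibrillar and type IV chains thus parted in fibroblasts outside the Acta2-positive gate. Of the 24 chains measured in Acta2-negative fibroblasts 0 were 1.5-fold higher and only Col23a1 was 1.5-fold lower, at 22.5 CPM in JQ1 and 34.7 CPM in control, against 6.11% and 2.56% of all genes measured there. Without the top cell of each library Col23a1 was no longer lower, at a fold of 0.685, and Col18a1 was higher, at 1.59 (1.33 to 1.92).

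Chain by chain, the type I chains were on opposite sides of 1 inside and outside the Acta2-positive gate. Col1a1 had 8054 CPM in JQ1 and 13854 CPM in control Acta2-positive cells, a fold of 0.581 (0.566 to 0.597), and 1890 CPM in JQ1 and 1676 CPM in control Acta2-negative cells, a fold of 1.13 (1.09 to 1.17). Col1a2 had folds of 0.701 (0.675 to 0.728) and 1.20 (1.16 to 1.24) in Acta2-positive and Acta2-negative cells. Col1a1 UMIs for each Col1a2 UMI were 1.74 in JQ1 and 2.09 in control Acta2-positive cells. They were 1.02 in JQ1 and 1.09 in control Acta2-negative cells. In the Pi16 subtype given below they went the other way, at 0.862 in JQ1 and 0.740 in control, with intervals that overlap. The type VI chains behaved likewise, with folds of 0.681 to 0.690 in Acta2-positive and 1.09 to 1.18 in Acta2-negative cells. Col4a1 had nearly the same fold in both, 0.755 (0.686 to 0.833) in Acta2-positive and 0.677 (0.635 to 0.721) in Acta2-negative cells.

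In Acta2-positive fibroblasts 3 of 24 measured chains were 1.5-fold higher in JQ1 and 9 were 1.5-fold lower, against 22.1% and 11.5% of all genes measured there. The higher ones were Col14a1, at 107 CPM in JQ1 and 29.1 CPM in control, Col18a1, at 269 and 140 CPM, and Col8a2, at 14.7 and 5.46 CPM, the last from 3 control UMIs. The lower ones included Col11a1, at 99.5 CPM in JQ1 and 286 CPM in control, and Col8a1, a network chain of vessel walls, at 264 and 694 CPM, a fold of 0.381 (0.334 to 0.434). In Acta2-negative cells Col8a1 was on the other side of 1, at 139 CPM in JQ1 and 107 CPM in control, a fold of 1.29 (1.14 to 1.48). Col11a1 was level there, at 19.1 CPM in JQ1 and 19.2 CPM in control, a fold of 0.996 (0.730 to 1.39). Acta2-positive cells gave 223 of the 564 Col11a1 UMIs of JQ1 fibroblasts and 157 of the 203 of control fibroblasts.

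**Figure D3:**
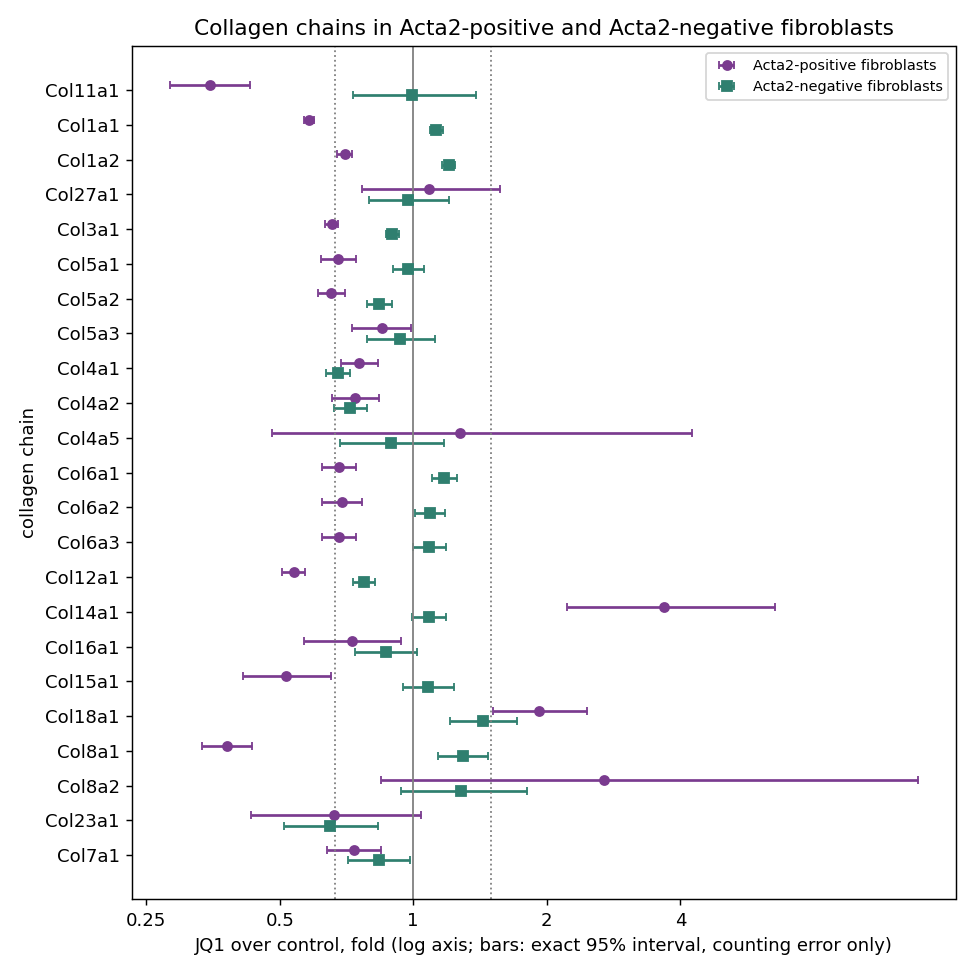
JQ1 over control fold (log axis) of each collagen chain measured in both Acta2-positive fibroblasts (circles) and Acta2-negative fibroblasts (squares), with exact 95% intervals; dotted lines mark 1.5-fold in either direction. Most fibrillar and type VI chains lie left of 1 in Acta2-positive and near 1 in Acta2-negative cells (Col1a1 at 0.581 and 1.13), while Col4a1 lies left of 1 in both, at 0.755 and 0.677.

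The cells in the Acta2-positive gate differed between the libraries in the gate's own genes. Within it Acta2 stood at 494 CPM in JQ1 and 1269 CPM in control, the actin-binding gene Tagln at 374 and 1796 CPM, and median depth was 6160 UMIs in JQ1 and 8443 UMIs in control. An Acta2 UMI was found in 9.06% of JQ1 and 2.32% of control immune cells, and a UMI of the pericyte gene Rgs5 in 11.2% of JQ1 and 1.92% of control Acta2-positive cells. When 3 contractile markers were asked for, a rule chosen after seeing the data, the gate held 110 JQ1 and 39 control cells, and the log2 ratio of their fibrillar chains was -0.23, with 0.12 in the Acta2-negative cells. When cells were thinned to equal depth before gating, only 20 JQ1 and 10 control cells were left in the gate and their log2 ratio was 0.66. The direction of the Acta2-positive result thus depended on the gate, and the part of RNA from other cells in it was not tested.

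The 3 other subtypes were taken from their own markers, and their fibrillar sums did not share a direction. In Pi16 fibroblasts, an adventitial type, fibrillar chains summed to 4308 CPM in JQ1 and 3808 CPM in control, a fold of 1.13 (1.06 to 1.21) over 461 JQ1 and 73 control cells, but the median cell had 1827 CPM in JQ1 and 2676 CPM in control. Single cells held 15.1% of the JQ1 and 13.3% of the control fibrillar UMIs of Pi16 cells. Without the top cell of each library the Pi16 fold was 1.08 (1.01 to 1.16). The Pi16 log2 ratio ran from -0.09 to 0.29 over 13 ways of processing. In Thbs4 fibroblasts, marked by tendon-like genes, the sums were 4664 CPM in JQ1 and 5232 CPM in control, a fold of 0.892 (0.862 to 0.922) over 976 and 221 cells, with medians of 2753 CPM in JQ1 and 2538 CPM in control. In Wif1 fibroblasts they were 7898 CPM in JQ1 and 9720 CPM in control, a fold of 0.813 (0.784 to 0.843) over 788 and 76 cells, with medians of 3989 and 3972 CPM. Sum and median therefore pointed in opposite directions in Pi16 and Thbs4 cells, and the medians were close in Wif1 cells. The Wif1 gate was not free of Thbs4. A Thbs4 UMI was in 62.1% of JQ1 and 57.9% of control Wif1 cells, against 97.1% and 94.6% of Thbs4 cells. A Wif1 UMI was in 63.3% of JQ1 Wif1 cells and in a smaller share of control Wif1 cells. In Thbs4 cells the Wif1 shares were 10.1% in JQ1 and 9.05% in control. The part of this overlap in the Wif1 folds was not tested.

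Type IV chains were lower in JQ1 in each of these 3 subtypes, with an interval that reached 1 in Pi16 cells alone. They summed to 621 CPM in JQ1 and 1117 CPM in control Wif1 fibroblasts, a fold of 0.556 (0.498 to 0.622). In Thbs4 fibroblasts they had 528 and 700.5 CPM, a fold of 0.754 (0.686 to 0.830), and in Pi16 fibroblasts 419 and 463 CPM, a fold of 0.906 (0.755 to 1.09). Wif1 cells also differed in single chains, with 3 of 25 measured chains 1.5-fold higher and 10 lower, against 19.2% and 10.8% of all genes. Col4a1 had 369 CPM in JQ1 and 732 CPM in control Wif1 cells, and Col8a1 had 109 and 60.7 CPM. Without the top cell of each library 8 of the 10 lower calls were kept. Of 25 measured in Thbs4 cells 0 were higher and 2 lower, against 12.4% and 6.63%, and of 20 in Pi16 cells 3 were higher and 1 lower, against 20.5% and 10.8%.

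**Figure D4:**
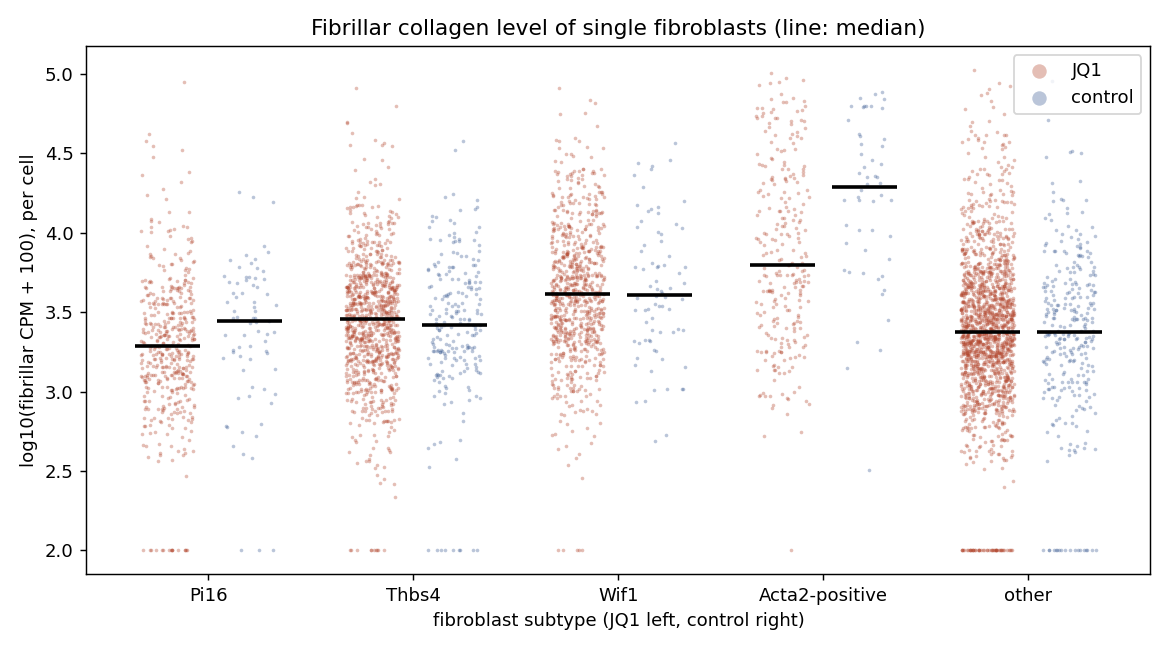
Fibrillar level of single fibroblasts, as log10(fibrillar CPM + 100), in 5 subtypes with JQ1 left and control right in each; each point is 1 cell and black lines are medians. The medians are 6138 CPM in JQ1 and 19379 CPM in control for Acta2-positive cells and 3989 and 3972 CPM for Wif1 cells, and the points of the 2 libraries overlap in every subtype.

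Depth moved with the fibroblast result. In fibroblasts of 500 to under 2000 UMIs the fibrillar fold was 1.02 (0.934 to 1.12), and from 2000 to under 4000 UMIs it was 0.993 (0.959 to 1.03). From 4000 to under 8000 UMIs it was 0.639 (0.624 to 0.656), and in cells of 8000 UMIs and over it was 0.655 (0.645 to 0.665), where JQ1 had 15970 CPM and control 24397 CPM. The lower fibrillar level in JQ1 was thus seen in the deeper fibroblasts, of which control had 156 and 58 in these upper bins. For type IV chains the folds were 0.909 (0.692 to 1.20), 0.832 (0.755 to 0.919), 0.528 (0.490 to 0.569) and 0.645 (0.608 to 0.684) in the same 4 bins, all below 1. The part of depth in these results was not tested.

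Endothelial cells and pericytes, which share the basement membrane of capillaries, had the highest type IV levels per UMI. In endothelial cells type IV chains summed to 1812 CPM (1786 to 1838) in JQ1 and 2439 CPM (2374 to 2505) in control, a fold of 0.743 (0.721 to 0.766), over 2035 JQ1 and 474 control cells. Of these cells 396 in JQ1 and 38 in control were lymphatic, with type IV levels given below. In cells of like depth the fold lay between 0.705 and 0.798. Col4a1 had 1096 CPM in JQ1 and 1564 CPM in control, a fold of 0.701 (0.675 to 0.728), and Col4a2 had 711 and 874 CPM, a fold of 0.814 (0.774 to 0.856). Unlike in fibroblasts, the ratio of the pair differed, at 1.54 Col4a1 UMIs for each Col4a2 UMI in JQ1, with an upper bound of 1.59, and 1.79 in control, with a lower bound of 1.69. After thinning each cell to 1000 UMIs a Col4a1 UMI was found in 39.2% of JQ1 and 50.3% of control endothelial cells, and before thinning in 65.2% and 68.4%. The thinned share in immune cells was 1.19% in JQ1 and 0.292% in control, with median depths of 2511.5 and 1946.5 UMIs there and 3817 and 3258.5 UMIs in endothelial cells.

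**Figure D5:**
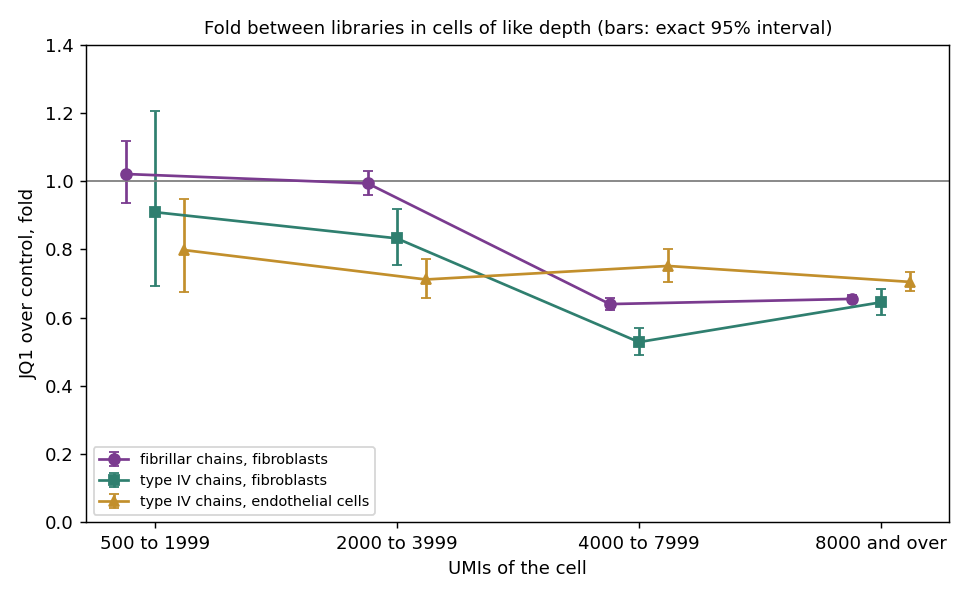
JQ1 over control fold of fibrillar and type IV chains in fibroblasts and of type IV chains in endothelial cells, within 4 ranges of UMIs per cell, with exact 95% intervals. Fibrillar folds in fibroblasts are 1.02 and 0.993 in the lower ranges and 0.639 and 0.655 in the upper ones, while type IV folds in endothelial cells lie between 0.705 and 0.798 throughout.

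The other vessel chains of endothelial cells were lower to a like degree. Col15a1 had 447 CPM in JQ1 and 587 CPM in control, a fold of 0.762 (0.716 to 0.811), and Col18a1 had 359 and 504 CPM, a fold of 0.712 (0.665 to 0.761). Col13a1 had 93.1 CPM in JQ1 and 173 CPM in control, a fold of 0.539 (0.479 to 0.608), and was the most different of the chains with over 50 CPM. Of 14 chains measured in endothelial cells, 2 were 1.5-fold higher and 4 were 1.5-fold lower in JQ1, against 9.03% and 3.23% of all genes measured there. A single control cell gave 39 of the 49 control UMIs of Col12a1, 24 of the 31 of Col7a1 and 27 of the 28 of Col1a2. Without the top cell of each library only Col13a1 and Col27a1 were still lower, Col12a1 was higher, at 11.3 CPM in JQ1 and 4.56 CPM in control, and Col7a1 was under the limit for a measured chain. In all, 5 of 13 measured chains were then higher and 2 were lower. Immune cells, all kept, had 33.7 CPM of Col12a1 in JQ1 and 1.55 CPM in control. A single immune cell gave 84 of those 143 JQ1 UMIs. Both chains called higher with all cells kept were low in level. Col1a2 had 27.1 CPM in JQ1 and 12.7 CPM in control, against 34.7 and 5.18 CPM in immune cells, and Col8a1 had 21.6 and 12.7 CPM. Fibrillar chains in all, at 128 CPM in JQ1 and 132 CPM in control, are set beside the immune level of 168 and 24.3 CPM, below it in JQ1 and above it in control. That control cell held 56.3% of the control fibrillar UMIs, and without the top cell of each library the values were 113 CPM in JQ1 and 58.3 CPM in control, a fold of 1.93 (1.61 to 2.34) in place of 0.968. The endothelial class includes lymphatic endothelial cells, as 396 of its 2035 JQ1 cells and 38 of its 474 control cells. Their type IV chains had 956 CPM in JQ1 and 824 CPM in control, a fold of 1.16 (0.989 to 1.37). Their Col15a1 had 37.2 CPM in JQ1 and 0 CPM in control. The part of this difference in makeup in the endothelial folds was not tested.

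Pericytes had the highest type IV level per UMI of the class and did not share the endothelial difference. Type IV chains summed to 4370 CPM (4269 to 4473) in JQ1 pericytes and 4122 CPM (3863 to 4394) in control pericytes, a fold of 1.06 (0.990 to 1.14) over 320 JQ1 and 44 control cells. Col4a1 had 2836 CPM in JQ1 and 2707 CPM in control, and Col4a2 had 1522 and 1410 CPM, both with intervals that include 1. Over all genes measured in pericytes the median log2 ratio was 0.11, above the 0.08 of their type IV chains, which became -0.02 under median-of-ratios scaling. The endothelial interval of 0.721 to 0.766 and the pericyte interval do not overlap, but the difference between the classes has no replicate. Fibrillar chains of pericytes were lower, at 4363 CPM in JQ1 and 7231 CPM in control, a fold of 0.603 (0.572 to 0.637). A single control pericyte held 24.9% of the control fibrillar UMIs, and without the top cell of each library the fold was 0.655 (0.616 to 0.696). The log2 ratio of -0.73 became -0.18 with a stricter gate, which left 26 control pericytes, and 0.052 with the thinned gate, which left 28, so the lower level depended on the gate.

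Of 18 chains measured in pericytes 0 were 1.5-fold higher and 7 were 1.5-fold lower in JQ1, against 23.8% and 11.9% of all genes measured there. Col3a1 had 729 CPM in JQ1 and 1773 CPM in control, a fold of 0.411 (0.367 to 0.461). Col6a3, the large type VI chain, had 870 and 1537 CPM, a fold of 0.566 (0.503 to 0.638), and Col15a1 had 79.1 and 192 CPM. One control cell gave 122 of the 352 control UMIs of Col6a3. Without the top cell of each library Col6a3, Col5a2 and Col12a1 had folds of 0.716, 0.710 and 0.684, inside the limit, and Col1a1, Col3a1, Col8a1 and Col15a1 were still lower. Col1a1 had a log2 ratio of 0.026 with the stricter gate and 0.14 with the thinned gate. Col18a1 was level, at 663 CPM in JQ1 and 642 CPM in control. In vascular smooth muscle, type IV chains had 640 CPM in JQ1 and 717 CPM in control, a fold of 0.893 (0.772 to 1.04). The fibrillar sum there was 418 CPM in JQ1 and 1857 CPM in control, but 1 control cell held 79.1% of the control fibrillar UMIs, and without the top cell of each library the values were 397 CPM in JQ1 and 411 CPM in control. Of 19 chains measured in vascular smooth muscle 1 was 1.5-fold higher and 11 were 1.5-fold lower, that control cell included and 3 of the 11 kept without the top cells, against 18.7% and 9.63% of all genes measured there. Without the top cells 3 of 18 measured chains were higher and 3 were lower.

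Schwann cells, the glia that sheathe nerve fibres and make their own basement membrane, came from 605 JQ1 but only 24 control cells with 200 collagen UMIs. When cells were clustered without collagen genes, 386 of the 605 JQ1 cells (63.8%) and 20 of the 24 control cells fell in the Schwann cluster. The like share in JQ1 was 94.4% to 98.4% in fibroblasts, pericytes, vascular smooth muscle, endothelial cells and keratinocytes. Type IV chains had 376 CPM in JQ1 and 284 CPM (159 to 468) in control, from 15 control UMIs, a fold of 1.32 (0.795 to 2.39), so a difference was not detectable at this depth. Of 23 measured chains 2 were 1.5-fold higher and 8 lower, against 17.9% and 19.8% of all genes measured there. The higher ones were Col16a1, at 273 CPM in JQ1 and 114 CPM in control, and Col20a1, at 263 CPM in JQ1 and 56.8 CPM in control from 3 UMIs. Among the lower ones, Col28a1 had 57.5 CPM in JQ1 and 208 CPM in control, a fold of 0.276 (0.146 to 0.578), from 11 control UMIs. Col8a1 had 60.7 and 208 CPM, but all 11 of its control UMIs were in 1 cell. Without the top cell of each library 3 of the 8 lower calls were kept, Col12a1, Col14a1 and Col28a1. In all, 6 of 22 measured chains were then higher and 4 were lower. Col6a3 and Col9a3 had 0 control UMIs.

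Keratinocytes, the epithelial cells from which these tumours arise, make few collagens. Of the 6 chains measured there that are neither fibrillar nor type IV, 1 was 1.5-fold lower, 1 was 1.5-fold higher and 4 were within the limit. Col18a1 had 71.7 CPM in JQ1 and 86.9 CPM in control, a fold of 0.825 (0.779 to 0.873), and Col7a1, which ties epithelium to stroma, had 48.0 and 56.6 CPM, a fold of 0.848 (0.790 to 0.909). Col12a1 had 29.3 CPM in JQ1 and 37.6 CPM in control, and Col16a1 had a fold of 1.04 (0.911 to 1.17). Col8a1 had 8.42 CPM in JQ1 and 24.8 CPM in control, a fold of 0.340 (0.288 to 0.398). These 5 chains stood above the immune level in control, where immune cells had 3.11 CPM of Col18a1 and 3.62 CPM of Col7a1. In JQ1 the exception was Col12a1, with 33.7 CPM in immune cells, or 14.0 CPM without the top immune cell. The median log2 ratio of all genes measured in keratinocytes was 0.14.

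Fibrillar chains in keratinocytes were higher in JQ1 but stood at or below the immune level there. They summed to 127 CPM in JQ1 and 23.5 CPM in control keratinocytes, against 168 and 24.3 CPM in immune cells, and a single JQ1 cell held 31.6% of the JQ1 fibrillar UMIs. Single cells also held 30.1% of the immune fibrillar UMIs in JQ1 and 44.7% in control. Without the top cells the sums were 86.9 CPM in JQ1 and 22.0 CPM in control keratinocytes, against 118 and 13.5 CPM in immune cells. The JQ1 levels of Col1a1, Col1a2, Col3a1, Col5a2 and Col4a1 were each below their immune level in JQ1, and without the top cells all but Col5a2 still were. Median depth was unlike, at 12056 UMIs in JQ1 keratinocytes and 2511.5 UMIs in JQ1 immune cells. The immune level in CPM therefore cannot decide whether these higher calls are expression by keratinocytes, which was not tested. Of 11 chains measured in keratinocytes 6 were 1.5-fold higher, these 5 among them, and 1 was lower, against 11.0% and 4.7% of all genes measured there. The remaining higher call was Col23a1, at 15.5 CPM in JQ1 and 9.76 CPM in control, a fold of 1.59 (1.39 to 1.81).

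Genes that act on collagen were set beside the chains from 6 lists of 69 genes in all, and their counts are to be read against the shares of all genes that were 1.5-fold different in the same class, which in fibroblasts were 5.83% higher and 3.07% lower. In fibroblasts 0 of 16 measured genes for modification and folding and 0 of 6 for secretion and processing were 1.5-fold different in either direction, with median log2 ratios of -0.24 and 0.05. Of 4 measured cross-linking genes 1 was lower: Lox, lysyl oxidase, had 147 CPM in JQ1 and 305 CPM in control, a fold of 0.482 (0.447 to 0.520). Of 9 measured fibril organisers 1 was higher and 2 were lower. Postn, periostin, had 888 CPM in JQ1 and 1799 CPM in control, a fold of 0.494 (0.479 to 0.509), and Fmod, the fibril-binding proteoglycan fibromodulin, 27.2 and 124 CPM. Tnxb, tenascin-X, had 452 CPM in JQ1 and 272 CPM in control, a fold of 1.66 (1.54 to 1.79). Of 11 measured laminins, nidogens and perlecan and 9 measured receptors and proteases, 0 were 1.5-fold different.

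In endothelial cells the basement membrane partners of type IV collagen included 3 of 10 measured genes that were 1.5-fold lower and 0 that were higher, against 3.23% and 9.03% of all genes. Nid1 and Nid2, the nidogens that link laminin to type IV collagen, had 247 and 104 CPM in JQ1 and 378 and 190 CPM in control, with folds of 0.654 (0.605 to 0.708) and 0.550 (0.491 to 0.616). Of 6 measured fibril organisers 2 were higher and 1 was lower, and the 1 measured cross-linking gene, Loxl2, was higher, with a fold of 2.04 (1.15 to 3.94). The higher organisers were Prelp, at 44.9 CPM in JQ1 and 20.3 CPM in control, and Tnxb, at 41.8 and 15.4 CPM, and these 3 genes were named after their values were seen. The lower one was Sparc, a collagen-binding protein, which had 2067 CPM in JQ1 and 3102 CPM in control, a fold of 0.666 (0.648 to 0.685). In pericytes 0 of 10 measured laminins, nidogens and perlecan were lower and 2 were higher, where 11.9% of all genes were lower and 23.8% higher. Among pericyte genes for modification and folding, 5 of 17 measured were lower, with Ppib, a prolyl isomerase of collagen folding, at 465 CPM in JQ1 and 734 CPM in control. Among pericyte fibril organisers 1 of 7 was higher and 4 were lower, with Bgn, biglycan, at 1446 CPM in JQ1 and 2480 CPM in control and Postn at 1232 and 2105 CPM. In keratinocytes 1 of 8 measured basement membrane genes was higher and 1 lower, against 11.0% and 4.7% of all genes. The lower one was Lama3, a chain of the laminin under epithelia, at 72.5 CPM in JQ1 and 118 CPM in control. In Schwann cells 6 of 10 were higher and 2 lower, from few control UMIs, against 17.9% and 19.8% of all genes.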

How the data were processed

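The deposited files hold unnormalized UMI counts per gene and cell barcode, made by the authors with Cell Ranger 3.1.0 on mm10, and Seurat 4.0.0 is also named, per the submitters' processing notes. Every barcode in the deposited count matrices had at least 500 UMIs. A cell was kept if it had 200 genes or more and a mitochondrial share below 20%, and doublets were called with Scrublet in scanpy 1.11.5 (424 JQ1 and 119 control). A cell entered a class with a UMI for at least 40% of that class's markers and a lead of 20 percentage points over other classes. Fibroblast subtypes needed at least 2 of their markers.

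UMIs were summed per library and class and given as CPM of that class. Each level has an exact Poisson interval, and a JQ1 over control ratio has an exact conditional binomial interval (scipy 1.17.1). A count of 0 was set to 3 counts for a fold. These intervals hold counting error alone. A call is a fold of 1.5 or more, with no test, since each group is 1 library. Named chains are members, and genes of the comparison lists are named where they pass that fold with at least 50 CPM in the higher library. The members and lists were chosen with earlier results of these data known. The scripts were tested on simulated data.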

Additional observations from a re-analysis of the deposited data

Results flagged for a closer look

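Some chains were 1.5-fold or more higher in JQ1 in 1 class and 1.5-fold or more lower in JQ1 in another, and no difference between classes was tested. Col5a2 was 2.59-fold higher in JQ1 keratinocytes, while control was 1.54-fold above JQ1 in fibroblasts and 1.55-fold above it in pericytes. Col1a1 was 5.61-fold higher in JQ1 keratinocytes, while control was 1.53-fold above JQ1 in fibroblasts and 1.69-fold above it in pericytes. Col4a1 was 2.95-fold higher in JQ1 keratinocytes, while control was 1.55-fold above JQ1 in fibroblasts. Col3a1 was 10.8-fold higher in JQ1 keratinocytes, while control was 2.43-fold above JQ1 in pericytes. In JQ1 these 4 chains stood lower per UMI in keratinocytes than in immune cells, which had a lower median depth.

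Col23a1 was 1.59-fold higher in JQ1 keratinocytes, while control was 1.6-fold above JQ1 in fibroblasts. Its immune level was 1.65 CPM in JQ1 and 0.518 CPM in control, under the 15.5 and 9.76 CPM of keratinocytes. Col8a1 was 1.71-fold higher in JQ1 endothelial cells, while control was 2.88-fold above JQ1 in pericytes, 3.43-fold above it in Schwann cells and 2.94-fold above it in keratinocytes. The Schwann value rests on 11 control UMIs that were all in 1 cell. Without the top fibrillar cell of each class and library, the fibroblast Col5a2 and Col1a1 differences and the pericyte Col5a2 difference were under 1.5-fold.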

How the results depend on the processing

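All values here are log2 ratios of JQ1 over control unless called counts. The main values were -0.49 for fibrillar, -0.58 for type IV and -0.34 for other chains in fibroblasts, 0.08 for type IV chains in pericytes, -0.43 in endothelial cells and 0.41 in Schwann cells, with 0 chains higher and 8 lower in fibroblasts. With doublets kept, the fibrillar value was -0.52. A stricter gate gave -0.44 for fibrillar and -0.21 for other chains, 0.25 in pericytes and -0.35 in endothelial cells, and turned Col12a1 (1.10) and Col7a1 (0.53) in endothelial cells, Col1a1 (0.026) in pericytes and Col5a2 (0.55) in Schwann cells. A gate on cells thinned to 1000 UMIs gave -0.24, -0.51 and -0.048 for the 3 fibroblast groups, 0.34 in pericytes and -0.31 in endothelial cells, with counts of 1 higher and 3 lower. It turned fibrillar (0.66) and other chains (0.43) of Acta2-positive fibroblasts, fibrillar chains (0.052), Col12a1 (0.22) and Col1a1 (0.14) in pericytes, Col7a1 in fibroblasts (0.23) and endothelial cells (0.40), and Col15a1 in Schwann cells (0.14). Classes from clusters gave -0.45 for fibrillar and -0.28 for other chains and -0.40 for type IV chains in Schwann cells, with a count of 1 higher, and turned fibrillar (0.66) and other chains (0.61) of vascular smooth muscle, Col12a1 in endothelial cells (0.38) and Col16a1 in Schwann cells (-0.59). Median-of-ratios scaling gave -0.55, -0.64 and -0.40 in fibroblasts, -0.021 in pericytes and -0.49 in endothelial cells. The mean of per-cell CPM gave -0.16, -0.38 and -0.017 in fibroblasts and -0.37 in endothelial cells, with a count of 1 lower, and turned Col12a1 in endothelial cells (0.63). With free RNA taken off, fibrillar chains gave -0.51 and other chains -0.38, and Col1a2 in endothelial cells turned (-1.96). Leaving out barcodes found in both libraries, an alternative chosen after seeing the data, gave -0.43 for fibrillar chains. Leaving out the top fibrillar cell of each class and library, also chosen after seeing the data, gave -0.44 for fibrillar chains and a count of 5 lower, and turned other chains of vascular smooth muscle (0.14), Col12a1 (1.31) and Col7a1 (0.38) in endothelial cells, and Col5a2 (0.24), Col5a1 (0.0022) and Col15a1 (0.64) in Schwann cells. With no filter on members 2 chains were higher, and at 2-fold 1 was lower. Counts under alternative settings, here and above, are given without the share over all genes, so they cannot be read against it. The causes were not tested. No paired analysis was possible because each group is 1 library, and for the same reason no replicate could be left out. Fibroblast fibrillar and type IV chains and endothelial type IV chains were below 0 in all these settings. Control Schwann cells, at 24, and control pericytes, at 44, set the precision there.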

Other observations

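Lymphatic endothelial cells had Col23a1, a transmembrane chain, at 119 CPM in JQ1 and 256 CPM in control, a fold of 0.465, from 396 JQ1 and 38 control cells. In fibroblasts outside the 4 named subtypes, fibrillar chains summed to 6333 CPM in JQ1 and 5405 CPM in control, a fold of 1.17 (1.14 to 1.21), and type IV chains to 596 and 851 CPM, a fold of 0.700 (0.650 to 0.754).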
